A study of Mus musculus with 9 samples.

Results

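The mRNA recovered with RIG-I from mouse melanoma cells carrying shOSGEP#2, an shRNA against Osgep, was compared with that from cells carrying the control shRNA shCtr. The comparison took the 3 shOSGEP#2 libraries and the 3 shCtr libraries by their labels, 6 of the 9 libraries of the series, and the other 3 came from a second shRNA, shOSGEP#1. All cells were B16F10 (cell line label B16), a mouse melanoma line of the melanocyte lineage, and all expressed a FLAG-tagged RIG-I, which anti-FLAG beads pulled down with its RNA before ribosomal RNA was removed and libraries were sequenced. Cells of the shCtr group carried the genotype label WT and those of shOSGEP#2 the label KD OSGEP. Cells had been transduced with the shRNA and selected with puromycin, and the replicates came from independent experiments. RNA of whole cells, which the study also sequenced, was not analysed here, so in these libraries more or less of an mRNA in the pull-down cannot be told apart from more or less of it in the cell, nor fewer cells of a kind from less RNA per cell.

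OSGEP is the catalytic subunit of KEOPS, the complex that places the modification t6A next to the anticodon of tRNAs reading codons that begin with A. The modification keeps decoding accurate, and loss of it disturbs protein folding. RIG-I is a cytoplasmic helicase that binds double-stranded or 5′-triphosphate RNA and signals through MAVS to interferon and its target genes. It also contacts many cellular mRNAs. The series holds no pull-down from cells without the tagged protein, so mRNA bound to RIG-I cannot be told apart from mRNA held by the beads. RIG-I-bound stands below for mRNA recovered in the pull-down.

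The shCtr libraries held 40333037, 47750758 and 41805753 counts in replicates 1, 2 and 3, and the shOSGEP#2 libraries held 25460689, 568995 and 14914731, the order in which values are given throughout. Replicate 2 of shOSGEP#2 stood apart. It had counts on 4196 genes. Replicate 1 of the group had counts on 13786, within the 13523 to 13958 of shCtr, and replicate 3 on 11733, below them. Its 10 most abundant genes took 13.8% of its counts, and Lars2 alone took 6.79%. Of 1298 genes whose level in replicates 1 and 3 predicted at least 100 counts in replicate 2, 242 (18.6%) had 0 there, and of 8296 genes with at least 10 predicted counts, 4426 (53.4%) had 0. An mRNA below 5.27 CPM (counts of a gene, with every library scaled to the same total) falls under the floor of 3 counts in it, a floor that covers counting error only and no error of copying, since the counts carry no molecule barcodes. Values above 0 in replicate 2 do not place a gene safely either. Sox10 (1089.6 CPM) and Tbx2 (562 CPM) lay above shCtr there but below it in replicates 1 and 3, while Prss23 was alike in all 3. A place above shCtr in replicate 2 is thus no independent support. Results are therefore given both without this library (8 libraries in the fit, 3 shCtr and 2 shOSGEP#2 libraries compared) and with it (all 9).

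Without shOSGEP#2 replicate 2, pigment genes fell in the RIG-I-bound mRNA, and genes of the contractile cytoskeleton and the extracellular matrix rose. Tyr, the tyrosinase that starts melanin synthesis, fell 14.2-fold, and 15 of 23 melanin and melanosome genes fell with none rising. Myl9, a myosin regulatory light chain, rose 24.1-fold, and 10 of 20 targets of serum response factor (SRF) and actomyosin genes rose with none falling. Col4a5, a chain of basement membrane collagen, rose 12.8-fold, and 10 of 30 collagen, laminin and related matrix genes rose while 2 fell. Across all genes, edgeR called 1217 of 12744 mRNAs (9.55%) at an adjusted p under 0.01, 721 higher (5.66%) and 496 lower (3.89%) in shOSGEP#2. For each of these both shOSGEP#2 libraries lay on 1 side of all 3 shCtr libraries. The share of all mRNAs tested that were separated in this way was not counted. An unadjusted p under 0.05 was reached by 4541, and DESeq2 called 2395 of 15710 (15.2%), 1338 higher (8.52%) and 1057 lower (6.73%).

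With all 9 libraries in the fit, edgeR called 0 of 12337 mRNAs (0%), with 1240 at an unadjusted p under 0.05 and a smallest adjusted p of 0.0936. In the same 9 libraries DESeq2 called 348 (234 higher and 114 lower), of which 301 were among the 1217. Limma voom, which weights each library by its quality and gave replicate 2 a weight of 0.0263, called 1012 (8.2%), 699 higher (5.67%) and 313 lower (2.54%), and 873 of them were among the 1217. Among the 3896 mRNAs with at least 10 counts in every library, replicate 2 included, edgeR called 94 (79 higher and 15 lower), and all of these were among the 1217. This filter removes mRNAs that are low in replicate 2, so its split into higher and lower depends on the filter itself. The median log2 fold change of all mRNAs tested was −0.06 without replicate 2 and −0.37 with it, and values of each fit are to be read against these medians. With libraries scaled by their totals instead of TMM the medians were 0.03 and −0.20.

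The 721 mRNAs called higher had a median absolute log2 fold change of 1.38, 584 of them exceeded 1 and 145 exceeded 2. The 496 called lower had a median of 1.18, and 349 exceeded 1 and 57 exceeded 2. The number of calls depended on single libraries. It was 584 without shCtr replicate 1, 518 without shCtr replicate 2, 766 without shCtr replicate 3 and 631 without shOSGEP#2 replicate 3. Without shOSGEP#2 replicate 1 it was 1248, of which 753 were shared with the 1217, and in fits that leave 1 shOSGEP#2 library that lone library is assumed to vary like the other groups. Of the calls, 59.2% were higher, 70.6% when libraries were scaled by their totals without TMM and 55.9% under DESeq2.

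Osgep (ENSMUSG00000006289), the mRNA targeted by the shRNA, had 19.1, 19.9 and 15.5 CPM in shCtr and 0.0786, 0 and 2.88 CPM in shOSGEP#2. Replicates 1 and 3 lay below all shCtr libraries, and replicate 3 kept more Osgep than replicate 1. The 0 of replicate 2 does not place it, since zeros were common there also among genes of higher level. The 8-library log2 fold change was −3.84 (standard error 0.93), and its edgeR adjusted p of 0.0150 missed the threshold of 0.01. With all libraries it was −3.95 (standard error 1.17, edgeR adjusted p = 0.302). Without shOSGEP#2 replicate 3 the single remaining library of the group, with 2 counts, gave a value of −7.86 that passed the threshold, and without shOSGEP#2 replicate 1 the value was −2.78. The stretch of Osgep that shOSGEP#2 targets lies in its coding part, across exons 4 and 5 of 11, and a processed pseudogene of the GENCODE annotation of GRCm38 holds the same stretch, so reads of the 2 may be mixed.

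Ddx58 (ENSMUSG00000040296), the gene of RIG-I itself, had 179.9, 184 and 278 CPM in shCtr and 402, 0 and 429 CPM in shOSGEP#2. Both deeper shOSGEP#2 libraries lay above all shCtr libraries, and replicate 2 had no count. The 8-library log2 fold change of 0.86 (standard error 0.23, edgeR adjusted p = 0.0239) missed the threshold, which it passed without shCtr replicate 3, the highest control library, at 1.10. With all libraries it was 0.29 (standard error 1.25, edgeR adjusted p = 0.940). Reads of the FLAG-tagged construct and of the endogenous gene cannot be told apart, and the amount of RIG-I protein pulled down was not analysed here.

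The mRNAs that rose most and those that fell most, among mRNAs of 5 CPM or more, included enzymes, receptors, adhesion proteins and channels. Cdsn encodes corneodesmosin, an adhesion protein of cornified skin, and had 2.28, 2.47 and 3.85 CPM in shCtr and 202, 0 and 75.6 CPM in shOSGEP#2. It rose 45.7-fold (log2 fold change 5.51, standard error 0.44, edgeR adjusted p = 7.10e-05), with both deeper shOSGEP#2 libraries far above shCtr and no count in replicate 2. Epha1, an ephrin receptor tyrosine kinase, had 0.496, 0.0419 and 0.526 CPM in shCtr and 12.1, 0 and 23.1 CPM in shOSGEP#2 (log2 fold change 5.53, standard error 0.84, edgeR adjusted p = 0.00128), again with no count in replicate 2. Its gene overlaps Zyx on the opposite strand, an mRNA that also rose, and the strand setting of the deposited counts is not stated, so reads of both genes may mix. Exons of a protein-coding gene on the opposite strand also overlap those of Kcnj13, Wipf3, Rarb, Timp3, Shc4, Vcl, Dnajb6, Tprkb, Rpl5, Rps25, Fdft1 and Eng, and non-coding RNAs overlap others, such as Prss23 and Sorbs2. Prss23, a secreted serine protease, had 3.60, 4.25 and 7.37 CPM in shCtr and 124, 125 and 130.2 CPM in shOSGEP#2. All 3 shOSGEP#2 libraries were alike and none came near a shCtr library (log2 fold change 4.55, standard error 0.33, edgeR adjusted p = 5.55e-05, 4.38 with all libraries).

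Cyp26b1, the cytochrome P450 that degrades retinoic acid, had 4.93, 4.75 and 8.49 CPM in shCtr and 117, 159.9 and 82.4 CPM in shOSGEP#2 (log2 fold change 3.95, standard error 0.31, edgeR adjusted p = 7.10e-05, 3.98 with all libraries). Here too replicate 2 lay above every shCtr library. Sorbs2, an adaptor protein of actin stress fibres, likewise had 3.15, 3.06 and 7.77 CPM in shCtr and 83.1, 189.8 and 66.6 CPM in shOSGEP#2 (log2 fold change 3.91, standard error 0.39, edgeR adjusted p = 0.000163, 4.20 with all libraries). Ogn, the small leucine-rich proteoglycan osteoglycin, had 0.446, 0.649 and 0.981 CPM in shCtr and 18.5, 0 and 13.8 CPM in shOSGEP#2 (log2 fold change 4.45, standard error 0.60). It had no count in replicate 2, as had 2 others. Ccdc80, a secreted protein of the matrix, rose by 4.24 on the log2 scale (standard error 0.54). Pkhd1, the ciliary membrane protein fibrocystin, rose by 4.27 (standard error 0.57). All 3 stayed at or under 1.32 CPM in shCtr.

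Lars2, the mitochondrial leucyl-tRNA synthetase, took more counts than any other gene named here in shOSGEP#2, with 296, 109 and 312 CPM in shCtr and 10959, 67922 and 2637 CPM in shOSGEP#2. Its share of all counts was 1.10%, 6.79% and 0.264% in shOSGEP#2 against 0.0296%, 0.0109% and 0.0312% in shCtr. All 3 shOSGEP#2 libraries exceeded shCtr but differed from each other many fold, with the shallowest library the highest. Whether the counts given to Lars2 are all reads of its mRNA was not tested. It passed the test in the 8-library fit (log2 fold change 4.75, standard error 0.87, edgeR adjusted p = 0.00340, 6.25 with all libraries), and the call ended without shCtr replicate 1, 2 or 3 or shOSGEP#2 replicate 1 (adjusted p from 0.0138 to 0.0202). In shOSGEP#1 it had 120.4, 1337 and 706 CPM, and the difference between the 2 shRNAs did not pass (log2 difference 3.17, edgeR adjusted p = 0.0182).

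The 8 that rose and the 8 that fell with the largest changes among mRNAs of at least 100 CPM, Lars2 included, held several that act at the cell surface and in the matrix. Ccn4, a matricellular protein induced by Wnt signalling, had 26.1, 34.3 and 47.2 CPM in shCtr and 434, 401 and 367 CPM in shOSGEP#2, and all 3 shOSGEP#2 libraries lay close together and above shCtr (log2 fold change 3.39, standard error 0.24, edgeR adjusted p = 5.55e-05, 3.22 with all libraries). Timp3, an inhibitor of matrix metalloproteinases, had 52.7, 47.7 and 54.1 CPM in shCtr and 596, 360.3 and 372 CPM in shOSGEP#2. It was higher in all shOSGEP#2 libraries (log2 fold change 3.15, standard error 0.27, edgeR adjusted p = 9.63e-05, 2.88 with all libraries), and its gene overlaps Syn3 on the opposite strand. Adgrl2, a latrophilin of the adhesion receptor family, had 60.1, 52.3 and 66.2 CPM in shCtr and 322, 1682 and 337 CPM in shOSGEP#2 (log2 fold change 2.37, standard error 0.20, edgeR adjusted p = 9.12e-05, 3.21 with all libraries). Ehd2, an ATPase that shapes caveolar membranes, had 42.5, 41.3 and 38.4 CPM in shCtr and 317, 0 and 270.4 CPM in shOSGEP#2 (log2 fold change 2.76, standard error 0.18, edgeR adjusted p = 5.29e-05, 2.19 with all libraries). Its groups were tight apart from the 0 of replicate 2, which stands where replicates 1 and 3 would predict more than 100 counts.

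Several of the mRNAs that fell most belong to pigment cells. Tyr, tyrosinase, had 153, 153 and 193 CPM in shCtr and 5.93, 0 and 19.8 CPM in shOSGEP#2, far apart (log2 fold change −3.83, standard error 0.41, edgeR adjusted p = 0.000213, −4.27 with all libraries). Trpm1, the melanocyte cation channel melastatin, had 240.1, 258 and 323 CPM in shCtr and 17.4, 0 and 47.5 CPM in shOSGEP#2 (log2 fold change −3.19, standard error 0.45, edgeR adjusted p = 0.000821, −3.70 with all libraries). Cited1, a transcriptional co-regulator expressed in melanocytes, had 436, 373 and 331 CPM in shCtr and 5.62, 0 and 58.5 CPM in shOSGEP#2, low in replicates 1 and 3 but to uneven degrees (log2 fold change −3.70, standard error 0.71, edgeR adjusted p = 0.00442). Oca2, a melanosome membrane protein mutated in albinism, had 7.88, 7.69 and 9.35 CPM in shCtr and 0.314, 0 and 0 CPM in shOSGEP#2 (log2 fold change −5.56, standard error 0.96, edgeR adjusted p = 0.00244). The call of Cited1 ended without shCtr replicate 1, 2 or 3 (adjusted p from 0.0107 to 0.0135), and that of Oca2 without shCtr replicate 1, 2 or 3 (adjusted p from 0.0107 to 0.0110) and under limma voom in the 8 libraries, at an adjusted p of 0.0336. Kcnj13, an inwardly rectifying potassium channel, had 83.2, 84.8 and 107 CPM in shCtr and 0.275, 0 and 12.1 CPM in shOSGEP#2 (log2 fold change −4.09, standard error 0.89, edgeR adjusted p = 0.00854), a call that ended without shCtr replicate 1, 2 or 3 (adjusted p from 0.0222 to 0.0248). In the fit of the 2 groups alone the adjusted p was 0.0249 for Kcnj13 and 0.0164 for Cited1. With 1 more library left out the log2 fold change of Kcnj13 ranged over −8.43 to −3.06. That of Oca2 ranged over −11.3 to −4.78 and that of Cited1 over −6.14 to −2.83.

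Ptgds, the lipocalin-type prostaglandin D synthase, had 489, 299 and 433 CPM in shCtr and 37.5, 0 and 63.7 CPM in shOSGEP#2 (log2 fold change −3.11, standard error 0.28, edgeR adjusted p = 0.000123, −3.64 with all libraries). Both deeper shOSGEP#2 libraries lay below every shCtr library, which the rule for naming genes by size required of all of them. Rarb, the retinoic acid receptor beta, had 26.1, 28.7 and 20.3 CPM in shCtr and 1.92, 0 and 4.49 CPM in shOSGEP#2 (log2 fold change −3.10, standard error 0.41, edgeR adjusted p = 0.000555). Its gene overlaps Top2b on the opposite strand. Nwd1, a protein with NACHT and WD repeat domains, fell by 3.49 (standard error 0.39) from 15.3, 15.8 and 15.0 CPM in shCtr. Abca12, a lipid transporter best known from keratinocytes, fell by 3.82 (standard error 0.58). Wipf3, a binding partner of the actin regulator N-WASP, fell by 3.89 (standard error 0.50). Rab17, a small GTPase of epithelial membrane traffic, had 8.03, 9.53 and 15.7 CPM in shCtr and 1.57, 0 and 0.603 CPM in shOSGEP#2 (log2 fold change −3.36, standard error 0.47, edgeR adjusted p = 0.000776). Ntrk3, the receptor of neurotrophin 3, fell by 3.14 (standard error 0.52). The last 3 lost their calls under limma voom in the 8 libraries (adjusted p = 0.0205, 0.0583 and 0.0321), and Ntrk3 also without shCtr replicate 2 or 3 or shOSGEP#2 replicate 3 (adjusted p from 0.0112 to 0.0123).

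Among mRNAs of at least 100 CPM that fell were genes of signalling. Shc4, an adaptor of receptor tyrosine kinases, had 187, 191 and 205 CPM in shCtr and 34.3, 0 and 34.4 CPM in shOSGEP#2. Values inside each group were almost equal apart from the 0 of replicate 2 (log2 fold change −2.60, standard error 0.17, edgeR adjusted p = 5.29e-05, −3.12 with all libraries). Mknk2, a kinase that phosphorylates the cap-binding factor eIF4E, had 442, 504 and 749 CPM in shCtr and 85.0, 0 and 125 CPM in shOSGEP#2 (log2 fold change −2.53, standard error 0.33, edgeR adjusted p = 0.000521, −3.08 with all libraries). Dusp4, a phosphatase that switches off MAP kinases, had 289, 319 and 364 CPM in shCtr and 44.8, 0 and 84.4 CPM in shOSGEP#2 (log2 fold change −2.43, standard error 0.32, edgeR adjusted p = 0.000571, −2.97 with all libraries). Osgin1, a growth inhibitor induced by oxidative stress, had 207, 185 and 87.7 CPM in shCtr and 27.0, 0 and 15.3 CPM in shOSGEP#2 and fell by 2.99 (standard error 0.38, edgeR adjusted p = 0.000459), with shCtr replicate 3 the lowest control. Of the 34 mRNAs named by the size of their change, 29 kept their call when any of the other 5 libraries compared was left out, those that did not being Lars2, Oca2, Kcnj13, Cited1 and Ntrk3. In replicate 2, 23 of the 34 had 0 counts, and all kept their direction in the 9-library fit, in which none passed.

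**Figure D1:**
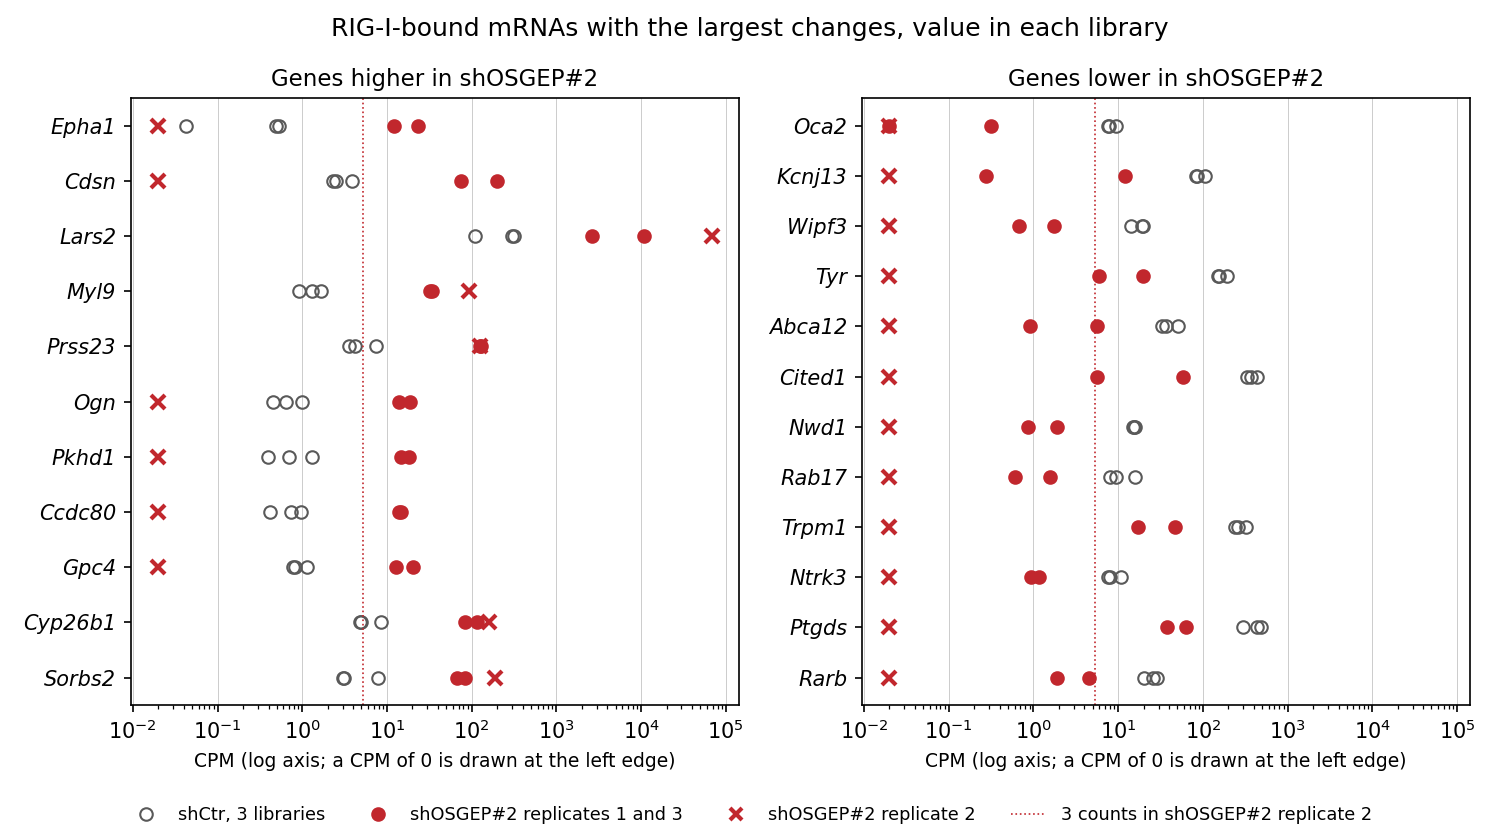
Level in CPM (log axis, with 0 drawn at the left edge) of 11 of the mRNAs that rose most and 12 of those that fell most in shOSGEP#2 against shCtr, with open circles for the 3 shCtr libraries, filled circles for shOSGEP#2 replicates 1 and 3, crosses for replicate 2 and a dotted line at its floor of 5.27 CPM. Filled circles lie on 1 side of all open circles for every gene, which was a condition for naming them. The crosses of Lars2, Myl9, Prss23, Cyp26b1 and Sorbs2 lie above the open circles, while the other 18 stand at 0.

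Melanin is made in melanosomes, and the genes that build and fill them were 1 of 29 lists by which the changes were sorted. The lists were chosen with earlier results of these data known, so their shares describe the changes and do not test them. Of the 23 pigment genes, all tested, 15 fell and none rose, which is 65.2% against the 3.89% of all mRNAs called lower. The median log2 fold change was −1.68 without and −2.10 with shOSGEP#2 replicate 2, beside −0.06 and −0.37 for all mRNAs. Dct, the dopachrome tautomerase of the pigment pathway, had 1438, 1242 and 1479.9 CPM in shCtr and 363, 165 and 379.8 CPM in shOSGEP#2. All shOSGEP#2 libraries lay far below shCtr, and replicate 2 was the lowest (log2 fold change −1.997, standard error 0.17, edgeR adjusted p = 0.000121, −2.37 with all libraries). Pmel, whose fibrils form the matrix of melanosomes, had 1105, 1059.98 and 1404 CPM in shCtr and 213, 15.8 and 401 CPM in shOSGEP#2 (log2 fold change −2.06, standard error 0.28, edgeR adjusted p = 0.000592). Mlana, a melanosome protein that binds Pmel, had 516, 451 and 723 CPM in shCtr and 223, 278 and 229.6 CPM in shOSGEP#2, with the shOSGEP#2 libraries alike (log2 fold change −1.41, standard error 0.21, edgeR adjusted p = 0.00106, −1.50 with all libraries), and its call ended without shOSGEP#2 replicate 3 (adjusted p = 0.0109). Tyrp1, the enzyme with the most counts on the list, had 1942, 1953 and 2999.9 CPM in shCtr and 1227, 116 and 1615 CPM in shOSGEP#2 and missed the threshold (log2 fold change −0.79, edgeR adjusted p = 0.0334). Summed over the list, levels were 11049, 10238 and 13432 CPM in shCtr and 4848, 2652 and 5759 CPM in shOSGEP#2, without overlap.

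Other members of the list move melanosomes or fill them. Rab27a, the GTPase that tethers melanosomes to actin, fell by 2.09 (standard error 0.21, edgeR adjusted p = 0.000180). Its motor Myo5a had a log2 fold change of −0.21 (edgeR adjusted p = 0.394) and Mlph, the linker between both, had −1.05 (edgeR adjusted p = 0.0179). Neither passed. Rab38, which delivers enzymes to melanosomes, fell by 1.57 (standard error 0.16, edgeR adjusted p = 0.000163). The ion exchanger Slc24a5, the transporter Slc45a2, the melanosomal receptor Gpr143, the Pmel-cutting protease Bace2, the tetraspanin Tspan10 and the glycoprotein Gpnmb fell by 1.05 to 2.21. The call of Gpnmb ended without shCtr replicate 1 or shOSGEP#2 replicate 1 or 3 (adjusted p from 0.0139 to 0.0165), that of Bace2 without shOSGEP#2 replicate 1, or with the 2 groups alone in the fit (adjusted p from 0.0108 to 0.0240) and that of Gpr143 under limma voom (adjusted p = 0.0117).

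Among regulators of the melanocyte lineage, 3 of 10 tested members fell and none rose (30.0% against 3.89%), with a median of −0.90 without and −0.96 with replicate 2. Mc1r, the receptor of melanocyte-stimulating hormone and also on the pigment list, had 202, 187 and 253 CPM in shCtr and 47.8, 0 and 49.1 CPM in shOSGEP#2 (log2 fold change −2.24, standard error 0.25, edgeR adjusted p = 0.000261). Sox10, the neural crest factor that maintains the lineage, had 884, 824 and 890.2 CPM in shCtr and 417, 1089.6 and 514 CPM in shOSGEP#2. Replicates 1 and 3 lay below shCtr and replicate 2 above it (log2 fold change −0.99, standard error 0.16, edgeR adjusted p = 0.00158, −0.75 with all libraries), and the call ended without shOSGEP#2 replicate 1 (adjusted p = 0.0101). Tbx2, a T-box repressor, was split in the same way, with 298, 289 and 272 CPM in shCtr and 103, 562 and 164 CPM in shOSGEP#2 (log2 fold change −1.20, standard error 0.20, edgeR adjusted p = 0.00182, −0.53 with all libraries). Mitf, the master regulator of melanocytes, had 297, 357 and 784 CPM in shCtr and 168, 0 and 216 CPM in shOSGEP#2 and missed the threshold (log2 fold change −1.42, edgeR adjusted p = 0.0166). Pax3, which acts upstream of Mitf, had −0.36 (edgeR adjusted p = 0.259). Markers of the cell type were present in both groups, while Kit, Ednrb and Lef1 had no count in any of the 6 libraries. Such a 0, here and below, does not show that a gene is off. Atp5o, of the oxidative phosphorylation list, also had no count in any of the 6.

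Since these genes fell together, their promoters are shown. RefSeq windows from 250 bases before to 50 bases after the start of transcription (GRCm38.p6) were searched on both strands for 6 motifs, among them TCATGTG, letters that MITF binds. The 15 pigment genes that fell had 11 windows from 9 genes. TCATGTG stood in 6 of these 11, in 2 of 9 windows of the others on the list and in 2.08% of the 12757 windows of all mRNAs tested. CATGTG, which every TCATGTG contains, stood in 8 of 11, 3 of 9 and 8.55%, and CACGTG stood in 2 of 11, 4 of 9 and 9.74%. The genes that fell and had TCATGTG were Dct, Mc1r, Slc24a5, Trpm1, Tspan10 and Tyr. A match is no site or cause. The 250 bases before the start are given 5′ to 3′ on the strand of the gene, with TCATGTG or its reverse complement in capitals, for Tyr (chr7:87493513-87493762, minus strand), Trpm1 (chr7:64153585-64153834, plus strand) and Dct (chr14:118052247-118052496, minus strand).
Tyr: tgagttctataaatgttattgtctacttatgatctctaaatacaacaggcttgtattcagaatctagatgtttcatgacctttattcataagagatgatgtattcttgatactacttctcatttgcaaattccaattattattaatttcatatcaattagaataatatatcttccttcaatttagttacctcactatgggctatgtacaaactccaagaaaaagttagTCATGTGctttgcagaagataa
Trpm1: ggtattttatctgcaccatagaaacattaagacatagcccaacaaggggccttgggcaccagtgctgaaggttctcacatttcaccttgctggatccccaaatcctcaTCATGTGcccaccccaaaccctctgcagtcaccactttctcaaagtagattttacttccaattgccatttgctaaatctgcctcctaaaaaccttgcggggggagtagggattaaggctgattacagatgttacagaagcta
Dct: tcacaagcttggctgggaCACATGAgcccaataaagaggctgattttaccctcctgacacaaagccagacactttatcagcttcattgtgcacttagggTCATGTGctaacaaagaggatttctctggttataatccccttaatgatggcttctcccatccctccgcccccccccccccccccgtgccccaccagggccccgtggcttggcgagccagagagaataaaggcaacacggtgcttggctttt

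Markers of the neural crest and of dedifferentiated melanoma rose in 2 of 10 tested members and fell in none (20% against 5.66%), with a median of 0.98 without and 0.77 with replicate 2. The first median was 1.69 without shOSGEP#2 replicate 1 and −0.01 without shOSGEP#2 replicate 3, where 1 member was called. Axl, a receptor tyrosine kinase of invasive melanoma cells, had 11.4, 8.42 and 6.82 CPM in shCtr and 73.8, 153 and 57.5 CPM in shOSGEP#2, above shCtr in all 3 shOSGEP#2 libraries (log2 fold change 2.80, standard error 0.27, edgeR adjusted p = 0.000159, 3.03 with all libraries). Pdgfrb, the receptor of platelet-derived growth factor, had 4.71, 4.80 and 3.06 CPM in shCtr and 13.9, 0 and 24.7 CPM in shOSGEP#2 (log2 fold change 2.10, standard error 0.34, edgeR adjusted p = 0.00167), a call that ended without shOSGEP#2 replicate 3 (adjusted p = 0.0130). Ngfr, a neurotrophin receptor, had 1.42 (edgeR adjusted p = 0.0233) and did not pass. Sox9, a factor of the neural crest, had −1.23 (edgeR adjusted p = 0.0327), did not pass and had 0.12 with all libraries, with replicate 2 (141 CPM) above shCtr. Tnc, Wnt5a and Sox2 had no count in any of the 6 libraries.

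YAP and its partners of the TEAD family switch on genes when cells spread or feel stiffness. Of 19 tested targets, 9 rose and none fell, which is 47.4% against the 5.66% of all mRNAs called higher, with a median of 1.38 without and 0.86 with replicate 2. Amotl2, a junctional scaffold that binds YAP, had 57.2, 62.5 and 78.4 CPM in shCtr and 374, 696 and 242 CPM in shOSGEP#2 (log2 fold change 2.13, standard error 0.22, edgeR adjusted p = 0.000185, 2.35 with all libraries). Ccn1, a secreted matricellular protein and classical YAP target, had 11.7, 12.04 and 14.8 CPM in shCtr and 94.9, 388 and 67.1 CPM in shOSGEP#2 (log2 fold change 2.57, standard error 0.28, edgeR adjusted p = 0.000215, 3.33 with all libraries). For both genes all 3 shOSGEP#2 libraries lay above shCtr, and the shallow replicate 2 was the highest. Arhgef17, a guanine nucleotide exchange factor, had 27.9, 31.1 and 33.9 CPM in shCtr and 86.8, 289.99 and 106 CPM in shOSGEP#2 (log2 fold change 1.54, standard error 0.16, edgeR adjusted p = 0.000206). The growth factor-binding Crim1, Lats2, the kinase that restrains YAP, the secreted Fjx1 and the RNA-binding Rbms3 rose by 1.38 to 2.09. Axl and Gadd45a, the other members that rose, stand on the lists of dedifferentiated melanoma and p53 targets as well. Ccn2, another classical target, had 0.421, 0.817 and 2.10 CPM in shCtr and 3.69, 0 and 3.69 CPM in shOSGEP#2 and did not pass (log2 fold change 1.63, edgeR adjusted p = 0.0935), and Ankrd1 had no count.

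SRF drives genes of actin filaments and contraction. Of 20 tested members of this list, 10 rose and none fell (50.0%), with a median of 1.49 without and 1.53 with replicate 2. Myl9 had 0.917, 1.30 and 1.65 CPM in shCtr and 32.0, 93.1 and 34.5 CPM in shOSGEP#2, with no overlap between the groups (log2 fold change 4.59, standard error 0.42, edgeR adjusted p = 0.000127, 4.94 with all libraries). Zyx, the focal adhesion protein zyxin, had 242, 227 and 185 CPM in shCtr and 913, 1652 and 762 CPM in shOSGEP#2 (log2 fold change 1.85, standard error 0.17, edgeR adjusted p = 0.000151, 1.99 with all libraries). Vcl, vinculin of the same adhesions, had 52.6, 55.9 and 68.1 CPM in shCtr and 164, 118 and 203 CPM in shOSGEP#2 (log2 fold change 1.54, standard error 0.17, edgeR adjusted p = 0.000219). All 3 shOSGEP#2 libraries exceeded shCtr for these 3 genes. Cnn2, an actin-binding calponin, had 139, 125 and 112.02 CPM in shCtr and 629, 70.3 and 529 CPM in shOSGEP#2, and there replicate 2 lay below shCtr (log2 fold change 2.12, standard error 0.23, edgeR adjusted p = 0.000221, 1.60 with all libraries). The filament cross-linkers Flna and Actn1, the tropomyosins Tpm1 and Tpm4, caldesmon Cald1 and leiomodin Lmod1 rose by 1.04 to 3.16. The call of Actn1 ended without any 1 shCtr library or shOSGEP#2 replicate 1 (adjusted p from 0.0129 to 0.0330) and that of Tpm1 without shCtr replicate 2 (adjusted p = 0.0107). Srf itself had 0.61 and did not pass (edgeR adjusted p = 0.0561). Tagln2 and Tpm2 had no count in shCtr and Fhl2 none in shOSGEP#2 replicates 1 and 3, and with each at the bound set by 3 counts a library the median was 1.49.

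The promoters of these 2 lists were searched in the same way. GGAATG, letters that TEAD factors bind, stood in 5 of 9 windows of YAP targets that rose (from 7 of 9 genes), in 2 of 6 of those that did not, in 5 of 11 of SRF genes that rose, in 2 of 11 of those that did not and in 12.2% of all windows. The CArG box, which SRF binds, stood in 3 of 11 windows of SRF genes that rose (Cnn2, Myl9 and Vcl), in 4 of 11 of those that did not and in 1.25% of all windows. TGACTCA, bound by AP-1, stood in 0 of 9 windows of YAP targets that rose, in 1 of 6 of those that did not, in 2 of 11 of SRF genes that rose (Cald1 and Zyx), in 0 of 11 of those that did not and in 3.60% of all. Bases before the start of genes that rose together are given as above, from RefSeq on GRCm38.p6, with the CArG box in capitals for Myl9 (chr2:156775214-156775463, plus strand) and Cnn2 (chr10:79988350-79988599, plus strand), and with GGAATG or its reverse complement in capitals for Ccn1 (chr3:145649986-145650235, minus strand) and Amotl2 (chr9:102717554-102717803, plus strand).
Myl9: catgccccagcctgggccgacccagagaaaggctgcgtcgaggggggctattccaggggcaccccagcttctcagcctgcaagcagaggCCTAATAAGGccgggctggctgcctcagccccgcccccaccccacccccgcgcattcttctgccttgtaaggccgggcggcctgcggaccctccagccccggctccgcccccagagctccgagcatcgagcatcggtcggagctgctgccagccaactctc
Cnn2: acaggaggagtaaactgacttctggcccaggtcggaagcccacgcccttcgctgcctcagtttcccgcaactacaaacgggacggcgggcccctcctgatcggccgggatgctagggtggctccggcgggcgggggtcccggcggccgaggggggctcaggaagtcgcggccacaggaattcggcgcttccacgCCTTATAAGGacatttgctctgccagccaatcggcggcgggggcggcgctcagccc
Ccn1: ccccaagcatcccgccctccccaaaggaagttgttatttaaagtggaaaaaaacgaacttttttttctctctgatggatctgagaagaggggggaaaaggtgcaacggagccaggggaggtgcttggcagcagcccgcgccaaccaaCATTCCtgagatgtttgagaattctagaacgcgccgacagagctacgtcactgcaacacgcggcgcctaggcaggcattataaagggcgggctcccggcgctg
Amotl2: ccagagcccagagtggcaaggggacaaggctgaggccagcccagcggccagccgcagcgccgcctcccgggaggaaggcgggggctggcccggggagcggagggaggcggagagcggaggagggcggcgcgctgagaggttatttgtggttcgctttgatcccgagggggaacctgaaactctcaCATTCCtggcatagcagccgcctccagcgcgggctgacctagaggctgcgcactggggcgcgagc

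Basement membranes and interstitial matrix are built from collagens, laminins and glycoproteins. Of 30 tested genes of this list, 10 rose and 2 fell (40.0% against 9.55%), with a median of 1.86 without and 1.88 with replicate 2 (1.76 in the first fit without Col5a2, which had 2 counts in the 6 libraries). Col4a5 had 8.65, 10.8 and 9.33 CPM in shCtr and 103, 1102 and 161 CPM in shOSGEP#2 (log2 fold change 3.67, standard error 0.27, edgeR adjusted p = 6.08e-05, 4.99 with all libraries). Col5a1, a chain of a fibril collagen, had 14.7, 13.9 and 11.1 CPM in shCtr and 60.2, 1821 and 126 CPM in shOSGEP#2 (log2 fold change 2.71, standard error 0.28, edgeR adjusted p = 0.000200, 5.02 with all libraries). For both, replicates 1 and 3 lay far above shCtr. Replicate 2, where a value above 0 is no independent support, was the highest by far. Fn1, fibronectin, had 46.4, 34.4 and 21.1 CPM in shCtr and 255, 134 and 157 CPM in shOSGEP#2 (log2 fold change 2.52, standard error 0.30, edgeR adjusted p = 0.000362, 2.22 with all libraries). Lamc1, a laminin chain of most basement membranes, had 52.8, 48.4 and 46.7 CPM in shCtr and 168, 119.5 and 161 CPM in shOSGEP#2 (log2 fold change 1.65, standard error 0.17, edgeR adjusted p = 0.000200). For neither did the groups overlap. Thrombospondin Thbs1, the basement membrane collagens Col4a1 and Col4a2, the laminin chains Lamb2 and Lama5 and the heparan sulphate proteoglycan Hspg2 rose by 1.30 to 3.52. The call of Lama5 ended without any 1 of the 5 libraries, or with the 2 groups alone in the fit (adjusted p from 0.0107 to 0.0393). Nid1, which links laminin to collagen, fell by 1.46 (standard error 0.17), and fibulin Fbln1 fell by 1.89 (standard error 0.32), a call that ended without shOSGEP#2 replicate 3 (adjusted p = 0.0254).

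Some of these genes also mark fibroblasts, and 3 of the 12 fibroblast markers (Col1a1, Col1a2 and Col3a1) stand on the matrix list too. edgeR called 0 of 5 tested markers (2 at an unadjusted p under 0.05, 2 called by DESeq2 and 1 by limma voom, 2 by edgeR without shOSGEP#2 replicate 1), and their median was 2.06 without (1.12 also without shOSGEP#2 replicate 3) and 1.88 with replicate 2. Beside these and the marker counts that follow, edgeR called 9.55% of all mRNAs, DESeq2 15.2% and limma voom 1047 of 12744. Of all 12744, 4541 were at an unadjusted p under 0.05. Summed fibroblast markers were 8.85, 11.3 and 9.90 CPM in shCtr and 22.3, 68.5 and 39.1 CPM in shOSGEP#2, higher in every shOSGEP#2 library. Col1a2, with the most counts, had 1.12, 1.59 and 4.26 CPM in shCtr and 6.91, 0 and 18.1 CPM in shOSGEP#2, and Lum, a defining marker of fibroblasts, had no count in any of the 6 libraries. Their part in the rise of matrix genes was not tested. Leukocyte markers summed to 6.15, 4.36 and 2.85 CPM in shCtr and 1.65, 0 and 5.97 CPM in shOSGEP#2, led by Cd68, and edgeR called 0 of 6 tested (1 at an unadjusted p under 0.05, 0 called by DESeq2 and 0 by limma voom). Cd3g, Cd8a, Ms4a1, Nkg7, Ncr1, Itgam, Itgax and Ly6g of the 19 leukocyte markers had no count in the 6 libraries. Endothelial markers summed to 196, 153 and 166 CPM in shCtr and 244, 524 and 166 CPM in shOSGEP#2, mostly Eng, and edgeR called 0 of 7 tested among 11 (1 at an unadjusted p under 0.05, 1 called by DESeq2 and 0 by limma voom, 1 by edgeR without shOSGEP#2 replicate 1), with Emcn at 0. Of 11 keratinocyte markers only Cdh1 was tested, at 0.645, 0.461 and 0.957 CPM in shCtr, and edgeR, DESeq2 and limma voom did not call it. Krt5, Krt1, Krt10, Trp63, Dsg3, Dsg1a, Lor and Ivl had no count. The part of these cell types in the other results was not tested.

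Integrins are the receptors through which cells hold this matrix. Of 17 tested, 6 rose and none fell (35.3% against 5.66%), with a median of 0.28 without and 0.11 with replicate 2. The first median was 0.49 without shCtr replicate 1, 0.17 without shCtr replicate 3, 0.12 without shOSGEP#2 replicate 1 and 0.83 without shOSGEP#2 replicate 3. Itgb5, a partner of the alpha-v chain, had 39.2, 39.6 and 41.5 CPM in shCtr and 123, 241 and 132 CPM in shOSGEP#2 (log2 fold change 1.57, standard error 0.20, edgeR adjusted p = 0.000439), with all 3 shOSGEP#2 libraries above shCtr. The alpha-v chain Itgav, the laminin receptor chain Itga6, the fibronectin receptor chains Itga5 and Itga9 and the collagen receptor chain Itga1 rose by 1.53 to 1.91. The call of Itgav ended without shCtr replicate 1 or shOSGEP#2 replicate 3 (adjusted p from 0.0101 to 0.0162) and that of Itga1 without shCtr replicate 1 or 2 (adjusted p from 0.0150 to 0.0175). Itgb1, the shared beta chain, missed the threshold at 0.89 (edgeR adjusted p = 0.0207). Glypicans and syndecans, heparan sulphate proteoglycans of the cell surface, rose in 4 of 7 and fell in none (57.1% against 5.66%), with a median of 1.18 without and 1.28 with replicate 2, and the count was 2 without shCtr replicate 1 or 2 or shOSGEP#2 replicate 1 or 3. Gpc4 had 0.769, 1.15 and 0.813 CPM in shCtr and 20.1, 0 and 12.9 CPM in shOSGEP#2 (log2 fold change 4.09, standard error 0.40, edgeR adjusted p = 0.000160). Sdc4, the syndecan of focal adhesions, had 47.0, 54.3 and 59.2 CPM in shCtr and 166, 80.8 and 192 CPM in shOSGEP#2 (log2 fold change 1.64, standard error 0.19, edgeR adjusted p = 0.000271). Both kept their call when any 1 library was left out. Sdc2 rose by 1.46 and Sdc1 by 1.18, calls that ended without any 1 of the 5 libraries, except that Sdc1 kept its call without shCtr replicate 3 and lost it with replicates blocked by number (adjusted p from 0.0112 to 0.0659).

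Targets and ligands of TGF-beta moved both ways, with 3 of 16 tested higher and 1 lower (25.0% against 9.55%) and a median of 0.45 without and 0.67 with replicate 2. The first median was 0.80 without shCtr replicate 1 and 0.77 without shOSGEP#2 replicate 3, and the count of 4 was 2 without shCtr replicate 1 and 1 without shCtr replicate 2. Thbs1, an activator of latent TGF-beta, kept its call when any 1 library was left out. Tgfb3, a ligand, had 13.3, 9.30 and 8.30 CPM in shCtr and 66.9, 0 and 28.4 CPM in shOSGEP#2 (log2 fold change 2.13, standard error 0.37, edgeR adjusted p = 0.00247), a call that ended without shCtr replicate 2 or 3 or shOSGEP#2 replicate 1 (adjusted p from 0.0130 to 0.0206). The log2 fold change of Tgfb3 ranged over 1.34 to 2.63 with 1 more library left out. Id1, an inhibitor of differentiation factors, had 1.46, 2.85 and 2.92 CPM in shCtr and 11.8, 36.9 and 12.5 CPM in shOSGEP#2 (log2 fold change 2.23, standard error 0.39, edgeR adjusted p = 0.00282), a call that ended without shCtr replicate 1 or 2 (adjusted p = 0.0116). Skil, a repressor of the pathway, fell by 1.07 (standard error 0.22), a call that ended without any 1 of the 5 libraries, or under limma voom (adjusted p from 0.0124 to 0.0442).

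Outputs of the ERK pathway split, with 2 of 17 tested higher and 3 lower (29.4% against 9.55%) and a median of 0.34 without (0.13 also without shOSGEP#2 replicate 1) and 0.02 with replicate 2. The count of 5 was 3 without shCtr replicate 1 or 2. Spry1, a feedback inhibitor, had 3.12, 3.12 and 2.27 CPM in shCtr and 18.4, 96.7 and 17.7 CPM in shOSGEP#2, higher in all 3 shOSGEP#2 libraries (log2 fold change 2.57, standard error 0.27, edgeR adjusted p = 0.000206). Phlda1 fell beside Dusp4, with 368, 383 and 316 CPM in shCtr and 122, 441 and 187 CPM in shOSGEP#2 and replicate 2 above shCtr (log2 fold change −1.30, standard error 0.20, edgeR adjusted p = 0.00149). Il1rap, a subunit of the interleukin 1 receptor, rose by 1.89, a call that ended without shCtr replicate 1 or 2 or shOSGEP#2 replicate 1 (adjusted p from 0.0118 to 0.0121). Spred2, an inhibitor of the pathway, fell by 0.92, a call that ended without any 1 shCtr library or shOSGEP#2 replicate 3, or with the 2 groups alone in the fit (adjusted p from 0.0116 to 0.0470). Dusp6, the phosphatase of ERK, had 0.92 and did not pass (edgeR adjusted p = 0.0365). Of 20 immediate early genes none rose and 1 fell, near the background (5.00% against 3.89%, median 0.21 without and 0.10 with replicate 2). It was Nr4a3, an orphan nuclear receptor, with 42.8, 48.8 and 139 CPM in shCtr and 11.4, 0 and 9.19 CPM in shOSGEP#2 (log2 fold change −2.99, standard error 0.48, edgeR adjusted p = 0.00173), a call that ended without shOSGEP#2 replicate 3, or under limma voom (adjusted p from 0.0211 to 0.0273).

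Interferon-stimulated genes answer to the pathway that RIG-I can start. Of 50 tested, 5 rose and none fell. These 10.0% stand against 5.66% of all mRNAs called higher, and are near the 9.55% called in either direction. The median was 0.37 without and −0.02 with replicate 2. The count was 2 without shCtr replicate 1 or 2 or shOSGEP#2 replicate 3. Dhx58, the receptor LGP2 and a relative of RIG-I, had 12.1, 12.5 and 10.8 CPM in shCtr and 52.9, 0 and 35.5 CPM in shOSGEP#2, well above shCtr in replicates 1 and 3 (log2 fold change 1.82, standard error 0.22, edgeR adjusted p = 0.000405, 1.28 with all libraries). Gbp2, a guanylate-binding protein, had 6.67, 6.53 and 7.97 CPM in shCtr and 22.3, 94.9 and 34.7 CPM in shOSGEP#2, higher in all 3 shOSGEP#2 libraries (log2 fold change 1.91, standard error 0.28, edgeR adjusted p = 0.00104). Oasl2, an oligoadenylate synthetase-like protein, rose by 1.96 and the ADP-ribosyltransferase Parp14 by 1.22, calls that ended without shCtr replicate 1 or 2 or shOSGEP#2 replicate 3 (adjusted p from 0.0139 to 0.0345). Isg15, a ubiquitin-like modifier, had 0.58 (edgeR adjusted p = 0.0422) and Irf7, the factor that amplifies interferon, had 1.16 (edgeR adjusted p = 0.0573). Neither passed.

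Of genes of RIG-I-like receptor signalling, 1 of 30 tested was higher (Dhx58) and 2 lower (10.0% against 9.55%, with 8 called by DESeq2 beside 15.2% of all), with a median of 0.00 without and −0.33 with replicate 2. The first median was 0.10 with libraries scaled by totals and −0.05 to 0.06 with 1 more library left out, and the count was 1 without shCtr replicate 2 or shOSGEP#2 replicate 3. Cyld, a deubiquitinase that restrains the pathway, had 50.7, 60.1 and 61.2 CPM in shCtr and 30.9, 0 and 34.2 CPM in shOSGEP#2 (log2 fold change −0.91, standard error 0.17, edgeR adjusted p = 0.00344), a call that ended without shCtr replicate 2 or 3 or shOSGEP#2 replicate 1 or 3, or under limma voom (adjusted p from 0.0112 to 0.0193). Rnf135, the ubiquitin ligase Riplet that activates RIG-I, had 37.1, 38.8 and 32.6 CPM in shCtr and 21.8, 72.1 and 13.1 CPM in shOSGEP#2, with replicate 2 above shCtr (log2 fold change −1.13, standard error 0.25, edgeR adjusted p = 0.00888), and its call ended without any 1 shCtr library or shOSGEP#2 replicate 3, or with libraries scaled by totals, with the 2 groups alone in the fit or under limma voom (adjusted p from 0.0111 to 0.0528). Mavs, the adaptor of the pathway, had −0.51 and did not pass (edgeR adjusted p = 0.0552).

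In class I antigen presentation 7 of 15 tested genes rose and 1 fell, which is 53.3% against 9.55%, with a median of 1.26 without and 0.95 with replicate 2. H2-D1, a classical class I heavy chain, had 92.3, 74.8 and 77.2 CPM in shCtr and 286, 678 and 320.3 CPM in shOSGEP#2 (log2 fold change 1.80, standard error 0.23, edgeR adjusted p = 0.000459, 2.01 with all libraries). All 3 shOSGEP#2 libraries lay above shCtr, but class I genes are nearly identical in sequence, so reads may be shared among them. Nlrc5, the transactivator of class I genes, had 7.39, 7.10 and 7.22 CPM in shCtr and 30.3, 0 and 30.1 CPM in shOSGEP#2, uniform inside the groups apart from the 0 of replicate 2 (log2 fold change 1.97, standard error 0.21, edgeR adjusted p = 0.000215). The peptide transporter subunits Tap1 and Tap2, the trimming peptidase Erap1 and the other heavy chains H2-K1 and H2-Q4 rose by 1.26 to 2.61. The call of Tap1 ended without any 1 shCtr library or shOSGEP#2 replicate 3 (adjusted p from 0.0130 to 0.0311). Calr, a chaperone of peptide loading also on the list of the unfolded protein response, fell by 0.94, a call that ended without shCtr replicate 1 or 2 or shOSGEP#2 replicate 1 or 3 (adjusted p from 0.0209 to 0.0277).

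The unfolded protein response moved in some of its members, with 4 of 22 tested higher and 1 (Calr) lower (22.7% against 9.55%) and a median of −0.03 without and −0.02 with replicate 2. The first median was 0.07 with libraries scaled by totals, 0.19 without shOSGEP#2 replicate 1 and −0.23 without shOSGEP#2 replicate 3, and the count was 3 without shCtr replicate 1 or 2 or shOSGEP#2 replicate 1 or 3. Herpud1, which serves degradation of misfolded proteins, had 40.9, 40.5 and 32.7 CPM in shCtr and 141, 0 and 126 CPM in shOSGEP#2 (log2 fold change 1.72, standard error 0.17, edgeR adjusted p = 0.000163). Atf6, a sensor in the endoplasmic reticulum, had 58.8, 65.0 and 75.9 CPM in shCtr and 183, 199 and 182 CPM in shOSGEP#2, uniform in shOSGEP#2 (log2 fold change 1.36, standard error 0.17, edgeR adjusted p = 0.000450, 1.22 with all libraries). Ern1, the sensor IRE1, had 39.3, 39.9 and 41.2 CPM in shCtr and 91.6, 336 and 126 CPM in shOSGEP#2 (log2 fold change 1.34, standard error 0.21, edgeR adjusted p = 0.00159), a call that ended without shOSGEP#2 replicate 3 (adjusted p = 0.0152). All 3 shOSGEP#2 libraries exceeded shCtr for both. Sel1l, an adaptor of the degradation route, rose by 0.84, a call that ended without any 1 of the 5 libraries, or with replicates blocked by number or under limma voom (adjusted p from 0.0131 to 0.0368). Of 32 tested genes of the integrated stress response 2 rose and none fell, near the background (6.25% against 5.66%, median 0.33 without and −0.02 with replicate 2, the first 0.17 without shOSGEP#2 replicate 1). The count was 0 without shCtr replicate 1 or 2 or shOSGEP#2 replicate 3 and 1 without shOSGEP#2 replicate 1. Eif2ak3, the kinase PERK, had 30.4, 27.6 and 29.8 CPM in shCtr and 62.5, 367 and 79.9 CPM in shOSGEP#2 (log2 fold change 1.18, standard error 0.20, edgeR adjusted p = 0.00233), a call that ended without shCtr replicate 1 or 2 or shOSGEP#2 replicate 3 (adjusted p from 0.0109 to 0.01997). Cth, an enzyme of cysteine synthesis, rose by 1.54, a call that ended without any 1 of the 5 libraries (adjusted p from 0.0126 to 0.0527).

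Chaperones of the cytosol fell in 5 of 29 and rose in none (17.2% against 3.89%), with a median of −0.43 without and −0.80 with replicate 2. The count was 2 without shCtr replicate 1 or 2, 3 without shCtr replicate 3 and 1 without shOSGEP#2 replicate 3. Bag3, a co-chaperone of selective autophagy, had 95.4, 87.7 and 58.8 CPM in shCtr and 17.2, 0 and 18.4 CPM in shOSGEP#2 and kept its call when any 1 library was left out (log2 fold change −2.27, standard error 0.24, edgeR adjusted p = 0.000206). Hsph1, a nucleotide exchange factor of Hsp70, had 161, 174 and 120.2 CPM in shCtr and 57.4, 0 and 55.1 CPM in shOSGEP#2 (log2 fold change −1.52, standard error 0.22, edgeR adjusted p = 0.000952), a call that ended without shOSGEP#2 replicate 3 (adjusted p = 0.0113). Cct3, a chaperonin subunit, fell by 0.89 and Dnajb6, an Hsp40 protein, by 0.74, calls that ended without any 1 shCtr library or shOSGEP#2 replicate 3, with the 2 groups alone in the fit and, for Dnajb6, with libraries scaled by totals (adjusted p from 0.0103 to 0.05995). Its relative Dnaja2 fell by 0.67, a call that ended without any 1 of the 5 libraries, or with RLE scaling, with libraries scaled by totals, with the 2 groups alone in the fit, with replicates blocked by number or under limma voom (adjusted p from 0.0106 to 0.0446). Among 25 core genes of stress granules edgeR called 0 (8 at an unadjusted p under 0.05, 2 called by DESeq2 and 0 by limma voom, 1 by edgeR without shOSGEP#2 replicate 1), with a median of −0.19 without and −0.57 with replicate 2. Of all mRNAs edgeR called 9.55%, DESeq2 15.2% and limma voom 1047 of 12744, and 4541 of 12744 were at an unadjusted p under 0.05. Pabpc1, the poly(A)-binding protein, had 1859, 1371 and 1357 CPM in shCtr and 1635, 938 and 1023 CPM in shOSGEP#2, with overlapping groups.

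Of 9 tested genes of KEOPS and t6A synthesis, Osgep included, edgeR called 0 (1 at an unadjusted p under 0.05, 1 called by DESeq2 and 0 by limma voom), or Osgep alone without shOSGEP#2 replicate 3, and the median was −0.29 without (−0.53 also without shOSGEP#2 replicate 1) and −0.66 with replicate 2. Over all mRNAs edgeR called 9.55%, DESeq2 15.2% and limma voom 1047 of 12744, and 4541 of 12744 were at an unadjusted p under 0.05. Tprkb, another KEOPS subunit, had 117, 107 and 111 CPM in shCtr and 109, 0 and 113 CPM in shOSGEP#2 (log2 fold change −0.10, edgeR adjusted p = 0.648), level between the groups apart from replicate 2. Aminoacyl-tRNA synthetases, which charge tRNAs, were near the background, with 2 of 37 tested higher and 1 lower (8.11% against 9.55%) and a median of 0.10 without (−0.02 to 0.16 with 1 more library left out) and −0.31 with replicate 2. The count was 0 without any 1 shCtr library, 5 without shOSGEP#2 replicate 1 and 1 without shOSGEP#2 replicate 3. Beside Lars2 these were Mars2, the mitochondrial methionine enzyme, which rose by 1.16, a call that ended without any 1 shCtr library or shOSGEP#2 replicate 3, or with the 2 groups alone in the fit or under limma voom (adjusted p from 0.0120 to 0.102). Qars, the glutamine enzyme, had 128, 121 and 117 CPM in shCtr and 83.6, 82.6 and 64.6 CPM in shOSGEP#2 (log2 fold change −0.81, standard error 0.16, edgeR adjusted p = 0.00585), a call that ended without any 1 shCtr library or shOSGEP#2 replicate 3, or with the 2 groups alone in the fit (adjusted p from 0.0142 to 0.0490).

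Ribosomal proteins build the machine of translation, and 4 of 81 tested fell and none rose in edgeR (4.94% against 3.89%). Both this share and the 6.25% of proteasome subunits below lie under the 9.55% of all mRNAs called in either direction. An unadjusted p under 0.05 was reached by 56 ribosomal protein genes (4541 of all 12744 mRNAs). DESeq2 called 32 (15.2% of all) and limma voom 5 (1047 of all 12744). Of the 81, only 2 had a log2 fold change above 0, and the median was −0.59 without and −0.92 with replicate 2. The count was 2 without shCtr replicate 1, 8 without shOSGEP#2 replicate 1 and 1 without shOSGEP#2 replicate 3. Rpl5, which joins the 5S particle, had 739, 809 and 824 CPM in shCtr and 364, 170.5 and 467 CPM in shOSGEP#2, low in all 3 shOSGEP#2 libraries (log2 fold change −1.03, standard error 0.16, edgeR adjusted p = 0.00149, −1.41 with all libraries). Rpl7 had 794, 827 and 829.9 CPM in shCtr and 437, 1561 and 510.1 CPM in shOSGEP#2, with replicate 2 on the other side of shCtr (log2 fold change −0.88, standard error 0.15, edgeR adjusted p = 0.00230), and its call ended without shCtr replicate 2 or shOSGEP#2 replicate 1 or 3 (adjusted p from 0.0101 to 0.0139). Rps24 fell by 1.04, a call that ended without shCtr replicate 1 or shOSGEP#2 replicate 3 (adjusted p from 0.0131 to 0.0310). Rps25 fell by 0.98, a call that ended without shCtr replicate 1 or 3 or shOSGEP#2 replicate 1 or 3, or with the 2 groups alone in the fit or under limma voom (adjusted p from 0.0108 to 0.0259). Summed levels were 52815, 47901 and 55389.6 CPM in shCtr and 38237, 24896 and 36921 CPM in shOSGEP#2, without overlap. Proteasome subunits, which degrade proteins, fell in 2 of 32 and rose in none (6.25% against 3.89%, with 18 at an unadjusted p under 0.05 beside 4541 of all 12744, and 9 called by DESeq2 beside 15.2% of all) and had 0 values above 0, with a median of −0.50 without and −0.87 with replicate 2, and the count was 0 without shCtr replicate 1 or 2 or shOSGEP#2 replicate 1 or 3. Psma1 fell by 1.04 and Psmb1 by 0.85, calls that ended without each of these libraries and, for Psmb1, with the 2 groups alone in the fit (adjusted p from 0.0118 to 0.0378).

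Of the 13 mRNAs encoded by mitochondrial DNA edgeR called 0 (0 at an unadjusted p under 0.05, 0 called by DESeq2 and 0 by limma voom). The shares of all mRNAs were 9.55% for edgeR and 15.2% for DESeq2. Of all 12744, 4541 were at an unadjusted p under 0.05 and limma voom called 1047. The median of the 13 was 0.58 without and 2.78 with replicate 2. The first was −0.01 with replicates blocked by number, 0.22 without shCtr replicate 2, 0.98 without shCtr replicate 3 and 0.26 without shOSGEP#2 replicate 3. mt-Co1, a subunit of complex IV, had 1079.8, 797 and 1654 CPM in shCtr and 1032, 837 and 1535 CPM in shOSGEP#2, with overlapping groups. Of 79 tested nuclear genes of oxidative phosphorylation 4 fell and none rose, near the background (5.06% against 3.89%), with a median of −0.27 without and −0.69 with replicate 2. The count was 1 without any 1 shCtr library and 2 without shOSGEP#2 replicate 1 or 3. Cox7a2l, an assembly factor of respiratory supercomplexes, had 216, 206 and 215 CPM in shCtr and 106, 232 and 107 CPM in shOSGEP#2, near equal within groups but with replicate 2 above shCtr (log2 fold change −1.09, standard error 0.14, edgeR adjusted p = 0.000517). Atp5mpl, of ATP synthase, fell by 1.01, a call that ended without any 1 shCtr library or shOSGEP#2 replicate 1 (adjusted p from 0.0174 to 0.0298). Ndufs8, of complex I, fell by 1.27 and Uqcrh, of complex III, by 0.76, calls that ended without any 1 of the 5 libraries or under limma voom and, for Uqcrh, with libraries scaled by totals, with the 2 groups alone in the fit or with replicates blocked by number (adjusted p from 0.0119 to 0.0588).

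Of 24 proliferation genes edgeR called 0 (4 at an unadjusted p under 0.05, 0 called by DESeq2 and 0 by limma voom), with a median of −0.42 without (−0.16 also without shCtr replicate 3) and −0.85 with replicate 2. Of 36 DNA replication genes edgeR called 0 (17 at an unadjusted p under 0.05, 6 called by DESeq2 and 1 by limma voom, 2 by edgeR without shOSGEP#2 replicate 1), with a median of −0.58 without and −1.06 with replicate 2. Beside these 2 lists, edgeR called 9.55% of all mRNAs, DESeq2 15.2% and limma voom 1047 of 12744. An unadjusted p under 0.05 was reached by 4541 of all 12744. Top2a, the topoisomerase of dividing cells, had 201, 240.2 and 269 CPM in shCtr and 248, 98.4 and 269 CPM in shOSGEP#2, with overlapping groups. Mcm2, a subunit of the replicative helicase, had 215, 216 and 254 CPM in shCtr and 281, 200.4 and 264 CPM in shOSGEP#2, and only replicate 2 lay below shCtr. Of 25 tested p53 targets 4 rose and none fell (16% against 5.66%), with a median of −0.14 without (−0.20 to −0.02 with 1 more library left out) and −0.42 with replicate 2, and the count was 2 without shOSGEP#2 replicate 3. Rrm2b, a ribonucleotide reductase subunit used in DNA repair, had 43.6, 49.9 and 37.1 CPM in shCtr and 119, 0 and 136 CPM in shOSGEP#2 (log2 fold change 1.45, standard error 0.17, edgeR adjusted p = 0.000302). Gadd45a, which halts the cycle after damage, had 36.0, 32.4 and 22.6 CPM in shCtr and 101, 0 and 85.8 CPM in shOSGEP#2 (log2 fold change 1.53, standard error 0.24, edgeR adjusted p = 0.00138). For both, replicates 1 and 3 exceeded shCtr. Btg2, an antiproliferative factor, rose by 1.30, a call that ended without shOSGEP#2 replicate 3 (adjusted p = 0.0131). Bbc3, which starts apoptosis, rose by 0.95, a call that ended without any 1 of the 5 libraries (adjusted p from 0.0109 to 0.0181).

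Genes of cholesterol synthesis and uptake fell in 3 of 23 and rose in none (13.0% against 3.89%), with a median of −0.45 without and −0.87 with replicate 2. The count was 1 without shCtr replicate 1 or 3 or shOSGEP#2 replicate 1 or 3. Stard4, a sterol carrier, had 52.6, 71.0 and 80.4 CPM in shCtr and 18.3, 0 and 30.7 CPM in shOSGEP#2 (log2 fold change −1.58, standard error 0.27, edgeR adjusted p = 0.00214), a call that ended without shOSGEP#2 replicate 1 (adjusted p = 0.0141). Nsdhl, an enzyme of sterol synthesis, fell by 1.40, a call that ended without shCtr replicate 1 or 3 or shOSGEP#2 replicate 3, or with the 2 groups alone in the fit, with replicates blocked by number or under limma voom (adjusted p from 0.0111 to 0.0848). Fdft1, squalene synthase, fell by 1.23, a call that ended without any 1 of the 5 libraries, or with libraries scaled by totals or under limma voom (adjusted p from 0.0110 to 0.0640). Of 38 lysosomal genes 1 rose and 1 fell (5.26% against 9.55%, with 9 called by DESeq2 beside 15.2% of all), with a median of 0.04 without (−0.12 to 0.20 with 1 more library left out) and −0.31 with replicate 2, and the count was 0 without shCtr replicate 1 or 2 or shOSGEP#2 replicate 3 and 1 without shCtr replicate 3. Neu1, a sialidase, rose by 1.16 and Ctsd, cathepsin D, fell by 1.05, calls that ended without shCtr replicate 1 or 2 or shOSGEP#2 replicate 3 and, for Ctsd, without shCtr replicate 3, with the 2 groups alone in the fit or with replicates blocked by number (adjusted p from 0.0106 to 0.0625).

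**Figure D2:**
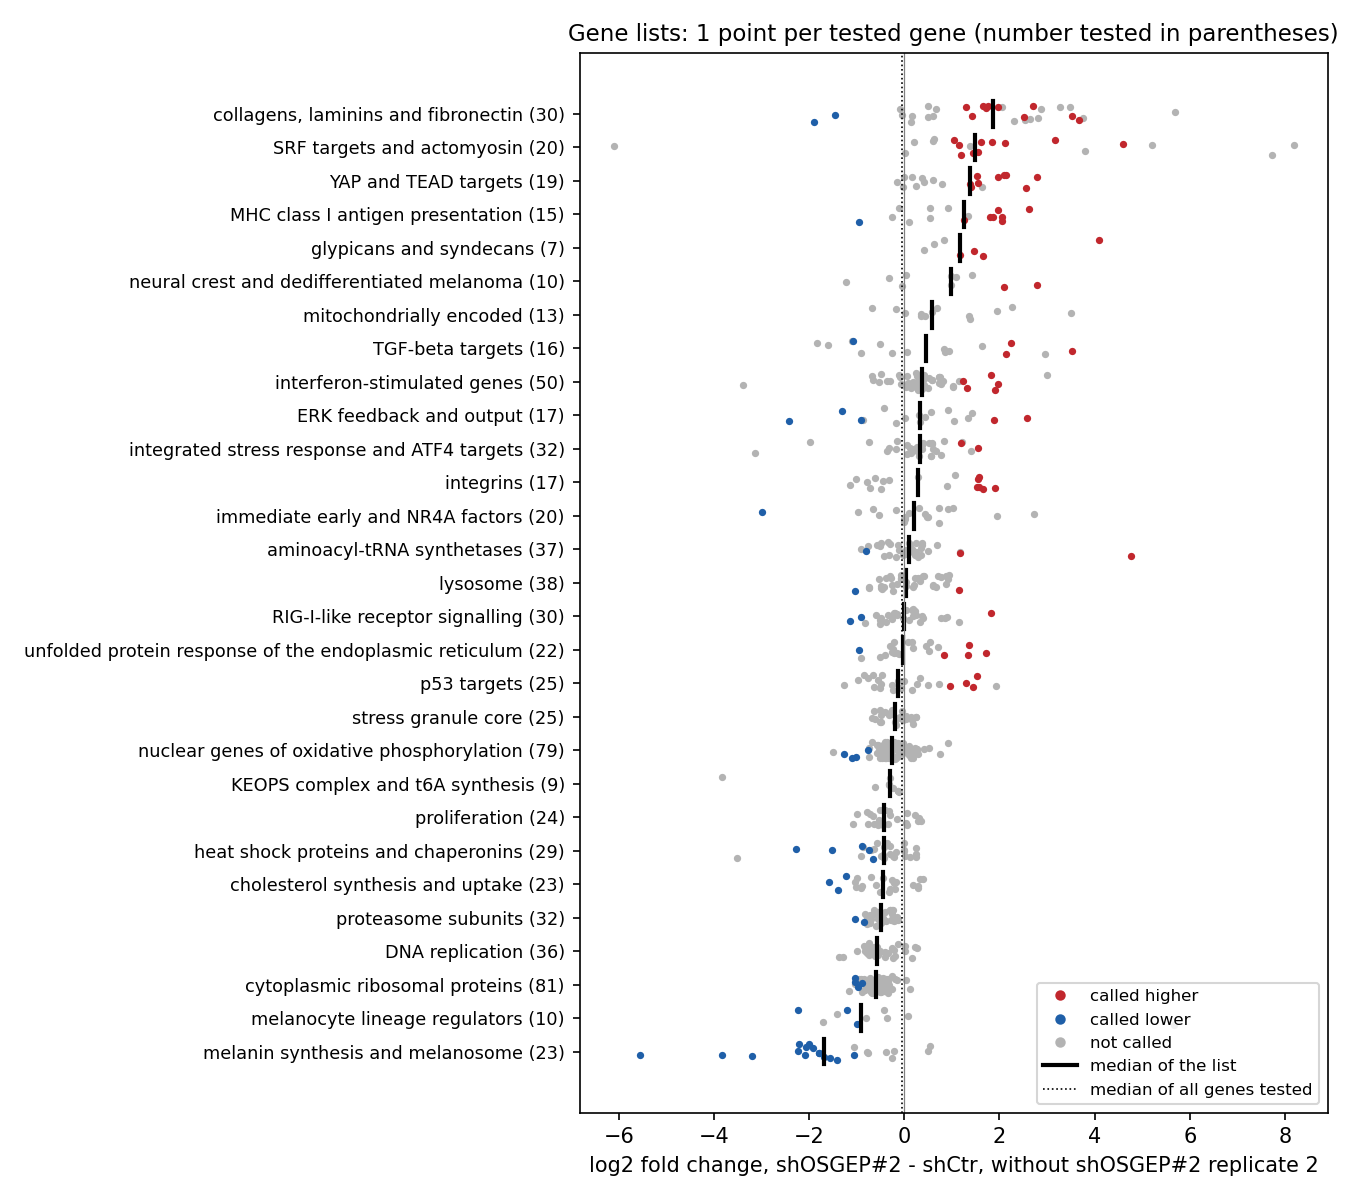
Log2 fold change (horizontal axis, shOSGEP#2 − shCtr without shOSGEP#2 replicate 2) of every tested gene of the 29 gene lists, ordered by median, with red and blue points for mRNAs called higher or lower, grey for the rest, a black bar at the median of each list and a dotted line at −0.06, the median of all genes tested. Pigment genes lie lowest with a median of −1.68, and the matrix list lies highest with 1.86.

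The mRNAs that rose were longer than others in the middle of their distribution. Their median transcript length was 4104 bases, against 3041 for those that fell and 2991 for all tested, with lengths for 12612 of 12744 mRNAs. With mRNAs split by transcript length into 5 equal bins, the share called higher climbed from 1.78% in the shortest to 10.2% in the longest, while the share called lower stayed between 3.61% and 4.29%, and the median log2 fold change went from −0.27 to 0.11. The part of length in the calls was not tested. Codons that begin with A, those read by the tRNAs that carry t6A, made up a median of 26.6% of the codons of mRNAs that rose, 26.8% of those that fell and 26.9% of all tested, and GC made up 54.0%, 52.9% and 53.2% of their coding bases. From the bin of mRNAs with the fewest such codons to the bin with the most, again of 5, the median log2 fold change went from 0.01 to −0.15.

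Cells with the other shRNA against Osgep, shOSGEP#1, were set against those with shOSGEP#2 for the genes named here. The direct contrast of shOSGEP#2 with shOSGEP#1, without shOSGEP#2 replicate 2, called 1375 mRNAs (10.8%), 794 higher (6.23%) and 581 lower (4.56%) in shOSGEP#2. The count was 743 without shOSGEP#2 replicate 3 and 821 without shOSGEP#1 replicate 2. With all libraries edgeR called 0 (0%), with 1325 at an unadjusted p under 0.05, DESeq2 called 412 and limma voom 933. Of the 34 mRNAs named by size, 21 differed between the 2 shRNAs. Ccn4 had 19.9, 23.1 and 17.0 CPM in shOSGEP#1, below every shCtr library (log2 difference 4.24, edgeR adjusted p = 2.84e-05). Cyp26b1 had 2.81, 2.11 and 3.29 CPM there, also below every shCtr library (log2 difference 5.12, edgeR adjusted p = 2.84e-05). Ptgds had 444, 490.2 and 413 CPM in shOSGEP#1, within or above the range of shCtr (difference −3.24, edgeR adjusted p = 0.000100). Rab17 had 33.5, 31.6 and 20.1 CPM, above every shCtr library (difference −4.70, edgeR adjusted p = 0.000186). Dct, at 1621, 2059.7 and 1806 CPM in shOSGEP#1, differed too (difference −2.38, edgeR adjusted p = 4.77e-05). For other genes the difference missed the threshold. Prss23 had 43.5, 71.4 and 79.7 CPM in shOSGEP#1 (difference 0.89, standard error 0.30). Mknk2 had 126, 105 and 64.9 CPM (difference 0.01, standard error 0.30). Tyr had 30.4, 26.1 and 27.3 CPM (difference −1.24, standard error 0.37). Osgep had 3.76, 1.15 and 1.53 CPM in shOSGEP#1, a level that also did not differ past the threshold (difference −0.74, standard error 0.87, edgeR adjusted p = 0.568).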

How the data were processed

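The authors read RNA pulled down with FLAG-tagged RIG-I as stranded paired-end libraries, trimmed and aligned them to GRCm39, estimated gene levels with Salmon and deposited whole-number counts for 22396 genes without normalization, of which 15227 had a count in the 6 libraries compared. Libraries were grouped by their labels into 3 shCtr, 3 shOSGEP#1 and 3 shOSGEP#2, and members and lists were chosen with earlier results of these data known. Depth ran from 568995 counts in shOSGEP#2 replicate 2 to 47750758 in shCtr replicate 2 among the 6, and 3 counts stood for 5.27 CPM in the first and 0.0628 CPM in the second. All 3 groups were fitted together with quasi-likelihood tests in edgeR 4.0.16 (R 4.3.3) after filterByExpr and TMM, and p was adjusted over all genes tested by Benjamini and Hochberg. A call is an adjusted p under 0.01. The shOSGEP#2 group was compared with shCtr and, where a named gene was concerned, with shOSGEP#1, in 9 libraries and in 8 without shOSGEP#2 replicate 2. CPM are counts scaled by library totals. Named genes were Osgep and Ddx58, the 12 called higher and the 12 called lower with the largest change at a mean of 5 CPM or more over the 5 libraries compared and without overlap of groups, the 8 in each direction at 100 CPM or more, and for each list up to 4 called genes of smallest p or, with none called, the gene of highest CPM. A gene without a usual symbol was passed over. Some genes are not reported here and enter no count of named genes. Further list members, called or not, were singled out after their values were seen. Alternatives were RLE scaling, library totals, 2 other filters, the 2 groups alone, the replicate number as a block, DESeq2 1.42.0, voom with sample weights in limma 3.58.1, an adjusted p under 0.05 and leaving out each library. The same alternatives for shOSGEP#1 were added after the data were seen. Tables and figures were made with Python 3.11.15, pandas 2.3.3, numpy 2.4.6, scipy 1.17.1 and matplotlib 3.10.9. The fits were run on simulated counts in which all libraries had the same spread. These lacked the many zeros of shOSGEP#2 replicate 2, so they do not show how the 9-library fit handles that library. Overlaps of exons and the place of the shRNA target came from a GENCODE annotation of GRCm38, and only coordinates of RefSeq promoter windows are given, because no GRCm39 genome was at hand.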

Additional observations from a re-analysis of the deposited data

Results flagged for a closer look

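Of the 34 mRNAs named for the size of their change against shCtr, 21 also differed between the 2 shRNAs against Osgep in the fit without shOSGEP#2 replicate 2, a difference between groups that carry the same label of knock-down. The log2 difference of shOSGEP#2 from shOSGEP#1 was above 0 for Epha1 (5.04), Cdsn (4.78), Myl9 (2.27), Ogn (5.01), Pkhd1 (4.34), Ccdc80 (3.52), Gpc4 (1.71), Cyp26b1 (5.12), Sorbs2 (3.81), Ccn4 (4.24), Timp3 (2.35), Ehd2 (2.64), Adgrl2 (1.45) and Amotl2 (1.26). It was below 0 for Nwd1 (−2.62), Rab17 (−4.70), Ptgds (−3.24), Rarb (−3.29), Osgin1 (−2.09), Shc4 (−1.45) and Dusp4 (−1.67). Adjusted p ranged from 2.84e-05 to 0.00734, and none passed in the fit of all 9 libraries. These genes were named with the same shOSGEP#2 libraries that enter the difference, which can raise the size of the values. Rarb, for example, had 32.8, 35.4 and 18.0 CPM in shOSGEP#1, beside 26.1, 28.7 and 20.3 CPM in shCtr and 1.92, 0 and 4.49 CPM in shOSGEP#2. What sets the 2 shRNAs apart was not tested.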

How the results depend on the processing

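Beside the counts of calls and the values of Osgep and Ddx58, 3377 values kept their side of the threshold or stayed within 1.5 times under an alternative, 157 moved, 272 became stronger, 291 became weaker and 21 reversed, and the cause was not tested. With all libraries in the fit, 0 calls against shCtr became 94 with at least 10 counts in every library, 348 under DESeq2 and 1012 under voom, and 0 to 1217 when a library was left out. With 8 libraries 1217 calls became 2395 under DESeq2, 2674 at an adjusted p under 0.05 and 518 to 1248 when a library was left out. For the difference from shOSGEP#1, 0 calls with all libraries became 86 with at least 10 counts, 412 under DESeq2, 933 under voom and 0 to 1375 with a library left out, and 1375 with 8 libraries became 2595 under DESeq2 and 743 to 1504. Osgep passed with all libraries under DESeq2 (−4.07) and with 8 libraries without a filter (−3.84), under DESeq2 (−3.72) and at an adjusted p under 0.05, and ranged over −7.91 to −3.24 and −7.86 to −2.78 with a library left out. Ddx58 passed with 8 libraries without a filter (0.86), under DESeq2 (0.88), under voom (1.02) and at an adjusted p under 0.05, and ranged over −0.13 to 0.86 with all libraries and 0.76 to 1.10 with 8. Reversed signs with all libraries were those of Ddx58 in the replicate block (−0.19), of Rpl7, Uqcrh and Mcm2 with totals (0.0309, 0.15 and 0.12) and of mt-Co1, Top2a and Mcm2 under voom (0.36, 0.0728 and 0.22). Leaving out a library also reversed mt-Co1 (−0.63 to 0.0660), Top2a (−0.64 to 0.0341), Mcm2 (−0.31 to 0.16) and Bbc3 (−0.0598 to 0.95), and with 8 libraries Pabpc1 (−0.71 to 0.0321), mt-Co1 (−0.26 to 0.36), Top2a (−0.0644 to 0.14) and Eng (−0.17 to 0.50). With 8 libraries mt-Co1 reversed in the replicate block (−0.24), and putting replicate 2 back reversed mt-Co1 (−0.27), Top2a (−0.36) and Mcm2 (−0.10). The replicate block gave 0 calls with all libraries and 1238 with 8. Replicates share a number, and the labels do not say whether it marks a shared experiment. Deviations of same-numbered shCtr and shOSGEP#2 libraries correlated at 0.18 and 0.16. The deviations of the 2 shOSGEP#2 libraries mirror each other, and shCtr replicate 1 correlated with shOSGEP#2 replicate 3 at −0.18. A lone shOSGEP#2 library left in a fit is assumed to vary like the other groups, and in replicate 2 depth hides what lies under its floor.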
